A study of Mus musculus with 4 samples.

Results

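The genes described here are 10 markers of the somatic cells of the testis, 6 of Sertoli cells (Sox9, Wt1, Gata4, Amh, Inha and Clu) and 4 of Leydig cells (Star, Cyp11a1, Cyp17a1 and Insl3). They were chosen by name, as genes whose products define these cells, and each was found once among the 22367 protein-coding genes of the GENCODE annotation of mm9. H3K36me3 ChIP-seq had been performed on germ cells, labelled as spermatocytes, of 2 mouse strains at 14 dpp. B6 is C57BL/6J, and KI is B6.Cg-Prdm9<tm1.1Kpgn>/Kpgn, a knock-in on the B6 background in which the exon of Prdm9 that encodes the zinc fingers comes from the CAST/EiJ allele. No treatment is given for either strain, and the number of animals behind a library is not given in the sources used here. The inputs, labelled 15 dpp, served as controls for peak calling and were not analysed here. For each strain 2 biological replicates had been merged before peaks were called, so there is 1 list of regions per strain, no replicate error, and no test between strains. The antibody is entered as H3K36me6 in the antibody field of the labels and as H3K36me3 in the titles.

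Sertoli cells surround and nourish the germ cells inside the seminiferous tubule, and Leydig cells lie between the tubules and make androgens. Neither cell type undergoes meiosis. In transcribed genes, SETD2 travels with RNA polymerase II and trimethylates H3K36 along the gene body, with little of the mark at the promoter and more toward the end of the gene. PRDM9 adds the mark in narrow stretches at recombination hotspots. In a suspension of germ cells, broad H3K36me3 over a Sertoli or Leydig gene is one sign of somatic cells, although a pooled library cannot tell few cells with a strong mark from many cells with a weak one.

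2 quantities were read from the peak lists for every gene. The covered share is the percentage of the annotated gene span that lies in broad (unrefined) regions, after overlapping regions were merged. The number of refined peaks counts the narrow peaks that overlap the span by at least 1 bp. The lists give positions only, so neither quantity measures the height of the enrichment. The B6 list had 58502 refined peaks and 445.9 Mb of merged broad regions, and the KI list had 72692 refined peaks and 425.4 Mb. Meiotic genes were covered in both strains. All 20 genes of a list of meiotic prophase genes, such as Hormad1, Msh4 and Ddx4, had at least 50% of their span in broad regions in both strains. Of all protein-coding genes, 43.0% reached that share in B6 and 41.2% in KI. The median covered share of the 20 genes was 97.8% in each strain. This list, like the others, was chosen with earlier results of these data known.

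The sequences below were read from the mm9 genome and are printed 5′ to 3′ in the sense of the gene. The first 4 lie in refined peaks and are shown because they are the places in the somatic markers where narrow enrichment was called on a coding exon, in both strains at once, or in the only refined peak of Clu. Capitals mark bases of a coding exon. The Wt1 sequence is the whole B6 refined peak at chr2:104983116-104983315 on the forward strand, of which 74 of 200 bases are exonic. The Gata4 shared sequence is chr14:63821601-63821701 on the reverse strand, the 101 bases of an intron that lie in a B6 and in a KI refined peak. The Gata4 exon sequence is the middle 200 bases, chr14:63819281-63819480 on the reverse strand, of a KI refined peak of 305 bp, and 108 of them are exonic. The Clu sequence is the whole B6 refined peak of 114 bp at chr14:66596284-66596397, forward strand, in an intron. The intronic Gata4 and Clu sequences have no capitals.
Wt1 exon, B6: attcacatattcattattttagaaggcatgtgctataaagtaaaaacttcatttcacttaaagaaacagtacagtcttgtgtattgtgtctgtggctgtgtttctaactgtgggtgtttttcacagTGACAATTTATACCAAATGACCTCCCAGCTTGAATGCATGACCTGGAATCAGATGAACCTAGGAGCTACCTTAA
Gata4 intron, B6 and KI: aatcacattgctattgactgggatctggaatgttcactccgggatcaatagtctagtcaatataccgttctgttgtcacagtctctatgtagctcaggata
Gata4 exon, KI: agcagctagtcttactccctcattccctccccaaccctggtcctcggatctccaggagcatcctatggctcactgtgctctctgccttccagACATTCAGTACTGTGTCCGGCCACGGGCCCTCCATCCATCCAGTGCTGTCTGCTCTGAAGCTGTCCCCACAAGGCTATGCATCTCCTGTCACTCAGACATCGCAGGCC
Clu intron, B6: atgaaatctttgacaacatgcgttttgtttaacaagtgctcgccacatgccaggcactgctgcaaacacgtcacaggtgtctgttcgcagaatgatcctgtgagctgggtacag

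Base composition was set beside that of all refined peaks of the strain. The 17 B6 refined peaks in the marker genes had a median GC content of 44.2% (range 31.5% to 51.3%), and all B6 refined peaks had a median of 41.9% (interquartile range 37.6% to 46.3%). The 7 KI refined peaks in the marker genes had a median of 46.6% (range 43.0% to 59.3%), beside 42.9% (38.5% to 47.2%) for all KI refined peaks, so each of the 7 was above the KI median.

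Star was the only marker whose whole span lay in broad regions in both strains, so the last 200 bases before its start are printed too, from chr8:26918746-26918945 on the forward strand. NR5A1 (steroidogenic factor 1) and GATA4 are known regulators of steroidogenic genes, and capitals mark matches to the NR5A1 half-site AGGTCA or to the GATA core GATAA on either strand.
Star upstream: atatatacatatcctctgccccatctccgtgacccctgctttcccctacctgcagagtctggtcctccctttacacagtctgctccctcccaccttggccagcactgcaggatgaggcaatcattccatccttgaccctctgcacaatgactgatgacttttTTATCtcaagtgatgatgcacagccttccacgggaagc

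The Star window held 1 match to GATAA and none to the exact letters AGGTCA. Among 8 other markers, the half-site was found at Inha and Cyp11a1, and the GATA core before Gata4, Inha and Cyp17a1 in the same window, with no match before Sox9, Wt1, Clu and Insl3. Over the windows of all 22367 protein-coding genes, 2242 (10%) held AGGTCA and 3776 (16.9%) held GATAA. These matches are letters in a window and were not tested as binding sites. Only the exact letters were searched for, so variant forms of either site would be missed.

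Few of the 10 marker genes were covered over most of their span, and 5 of the 6 Sertoli markers, all but Inha, were covered further in B6 than in KI. At least 50% of the span was covered in 2 of the 10 genes in B6 (Star and Wt1) and in 1 in KI (Star), whereas 43.0% of all protein-coding genes reached that share in B6 and 41.2% in KI. Any broad region was found on 6 of the 10 in B6 and on 5 in KI, beside 60.7% and 62.2% of all protein-coding genes. A refined peak was found in 4 of the 10 in B6 (Wt1, Gata4, Sox9 and Clu) and in 3 in KI (Gata4, Wt1 and Star), beside 52.7% and 54.9%. In 3 of the 10 (Inha, Cyp17a1 and Insl3) neither strain had a broad region, as in 34.0% of all protein-coding genes. The median covered share of the 10 genes was 24.7% in B6 and 0.167% in KI, and that of all protein-coding genes was 21.5% and 18.4%. Taken as 1 stretch of sequence, the markers had a covered share of 36.6% in B6 and 10% in KI.

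**Figure D1:**
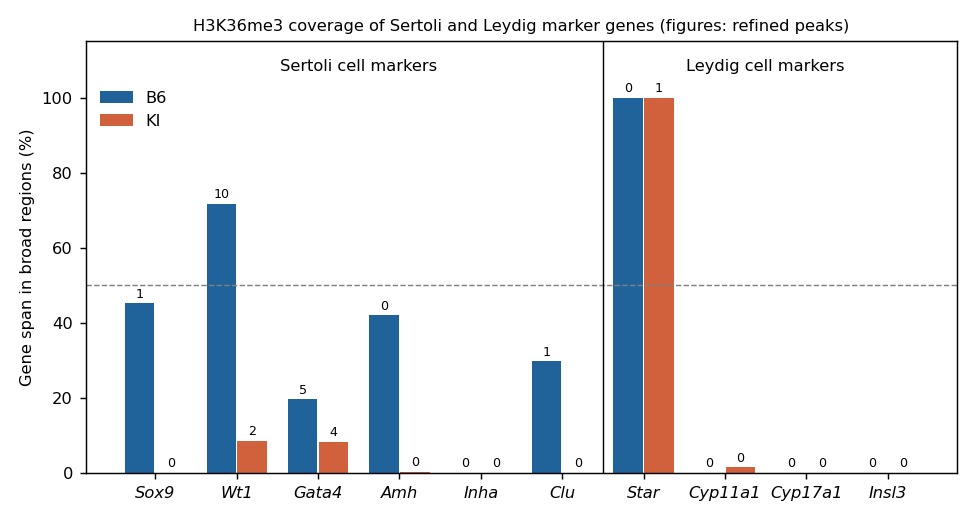
Covered share of each marker gene (percent of the annotated span in merged broad regions) in B6 (blue) and KI (orange), with the number of refined peaks above each bar and a dashed line at 50%. Star reached 100% in both strains, 5 of the 6 Sertoli markers were higher in B6, and Inha, Cyp17a1 and Insl3 were at 0 in both.

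Most of the covered bases of the markers lay in genes of Sertoli transcription factors, of which Wt1 and Gata4 are the 2 longest markers. By covered share, Star was higher than any of them. Wt1 encodes a zinc finger protein needed to keep Sertoli cells in their fate, and spans 47.1 kb on the forward strand of chromosome 2 (104966686 to 105013773). In B6, 71.7% of the span was covered, in 5 merged regions that together held 10 refined peaks. In KI, 8.49% was covered, by 2 regions of 2.0 kb with 1 refined peak each. The 2 KI regions lay wholly inside B6 regions, so 4000 bp of Wt1 were covered in both strains, 29773 bp in B6 alone and 0 bp in KI alone. Each of the 10 refined peaks of B6 lay clear of the KI regions, broad and refined alike.

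Along Wt1, B6 coverage was lowest near the start. The start of the gene was not covered, the first region began 8.31 kb downstream of it, and the covered share was 43.8%, 84.1% and 87.3% in the 3 equal parts of the gene from start to end. The last region, of 17000 bp, went 4.23 kb past the annotated end. None of the 5 regions reached another protein-coding gene. The nearest protein-coding genes, Gm11060 at 32.8 kb and 0610012H03Rik at 50.7 kb, were at 0 in both strains. The 10 kb downstream of Wt1 had a covered share of 30% in KI, against 42.3% in B6.

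Differences between the strains as large as that at Wt1 were uncommon among long genes. The covered share in B6 exceeded that in KI by 63.2 percentage points. Of the 7354 protein-coding genes of 30 kb and over, 2 had a difference of at least this size in favour of B6, Wt1 and Loxl2, and 0 had one in favour of KI. Over all 22367 protein-coding genes, of any length, 74 differed by at least this much in favour of B6 and 87 in favour of KI. Refined peaks were also dense on Wt1 in B6, at 21.2 per 100 kb. The 3774 genes of that length class with at least 50% coverage in B6 had a median of 3.95 per 100 kb (interquartile range 2.33 to 9.43), and 66 of them were at or above Wt1. That set includes genes covered whole with few peaks, such as Ddx4 with 1 in 54.0 kb. Other long genes much higher in B6 varied, with 8 peaks in 33.2 kb at Gyg and 6 in 86.7 kb at Loxl2. In KI, Wt1 had 4.25 per 100 kb. The 3521 such genes of KI had a median of 6.98, and 2380 of them were at or above Wt1.

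Sox9, the gene that directs the embryonic gonad toward Sertoli cells, is 5.54 kb long on the forward strand of chromosome 11 (112643538 to 112649074). In B6, a single broad region of 2.5 kb covered 45.2% of it, with 1 refined peak of 488 bp over the untranslated part of the last exon. In KI, none of Sox9 was covered and it had 0 refined peaks. The closest KI region lay 1.54 kb outside the gene, upstream of the start, and had a width of 2.5 kb. The B6 region began 2.46 kb from the start, and reached no other gene. The nearest protein-coding genes were far off, Gm11678 at 350587 bp and Slc39a11 at 457092 bp.

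Gata4 encodes a zinc finger factor active in Sertoli and Leydig cells, and is the longest marker at 72.8 kb, on the reverse strand of chromosome 14 (63817759 to 63890529). Its covered share was 19.6% in B6 and 8.25% in KI, with 5 and 4 refined peaks. Both strains were covered at the 3′ end. Of the 3 equal parts of the gene, the last held 42.2% in B6 and 24.7% in KI, the first was at 0 in both, and 3500 bp were covered in both strains. B6 had in addition 4 separate regions of 2.0 to 3.0 kb, each with 1 refined peak, spread from 36.5 to 63.0 kb after the start. In KI, 1 region of 2.5 kb lay at a place with no B6 region. Gata4 was the only marker in which a B6 refined peak met a KI refined peak, in the shared intron sequence printed above.

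Among the genes of secreted Sertoli products, Clu and Amh were partly covered in B6, and Inha in neither strain. Clu, which encodes the secreted chaperone clusterin, lies on chromosome 14 (66587320 to 66600385). In B6, 29.7% of it was covered by 2 regions of 2.5 kb toward its 3′ end, which held 88.5% of the last of its 3 equal parts. In KI, none of Clu was covered, and the closest broad region was 44.1 kb away. Inha, the alpha subunit of inhibin, which lowers follicle-stimulating hormone, lies on chromosome 1 (75503652 to 75506941). Inha was at 0 in both strains, and the nearest broad region, 4.15 kb away in each, lay in its neighbour Obsl1.

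Amh encodes the hormone that makes the Müllerian duct regress, and is made by immature Sertoli cells. The gene is 2.4 kb long on chromosome 10 (80267993 to 80270393). Its covered share was 42.0% in B6 and 0.333% in KI, which is 1008 bp and 8 bp. In both strains the region began in the adjacent gene, Sf3a2, a splicing factor gene that ends 323 bp before Amh and was covered to 92.6% in both strains, and stopped 1.01 kb into Amh in B6 and 0.007 kb into it in KI. Broad regions start and end on a grid of 500 bp, so the difference at Amh is 2 grid steps. With the span extended by 1000 bp on each side, the covered share of Amh was 45.6% in B6 and 22.9% in KI, a difference of 22.7 points. Amh had no refined peak in either strain and the last of its 3 equal parts was at 0. Mark from Sf3a2 and mark from Amh cannot be told apart in such a region.

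**Figure D2:**
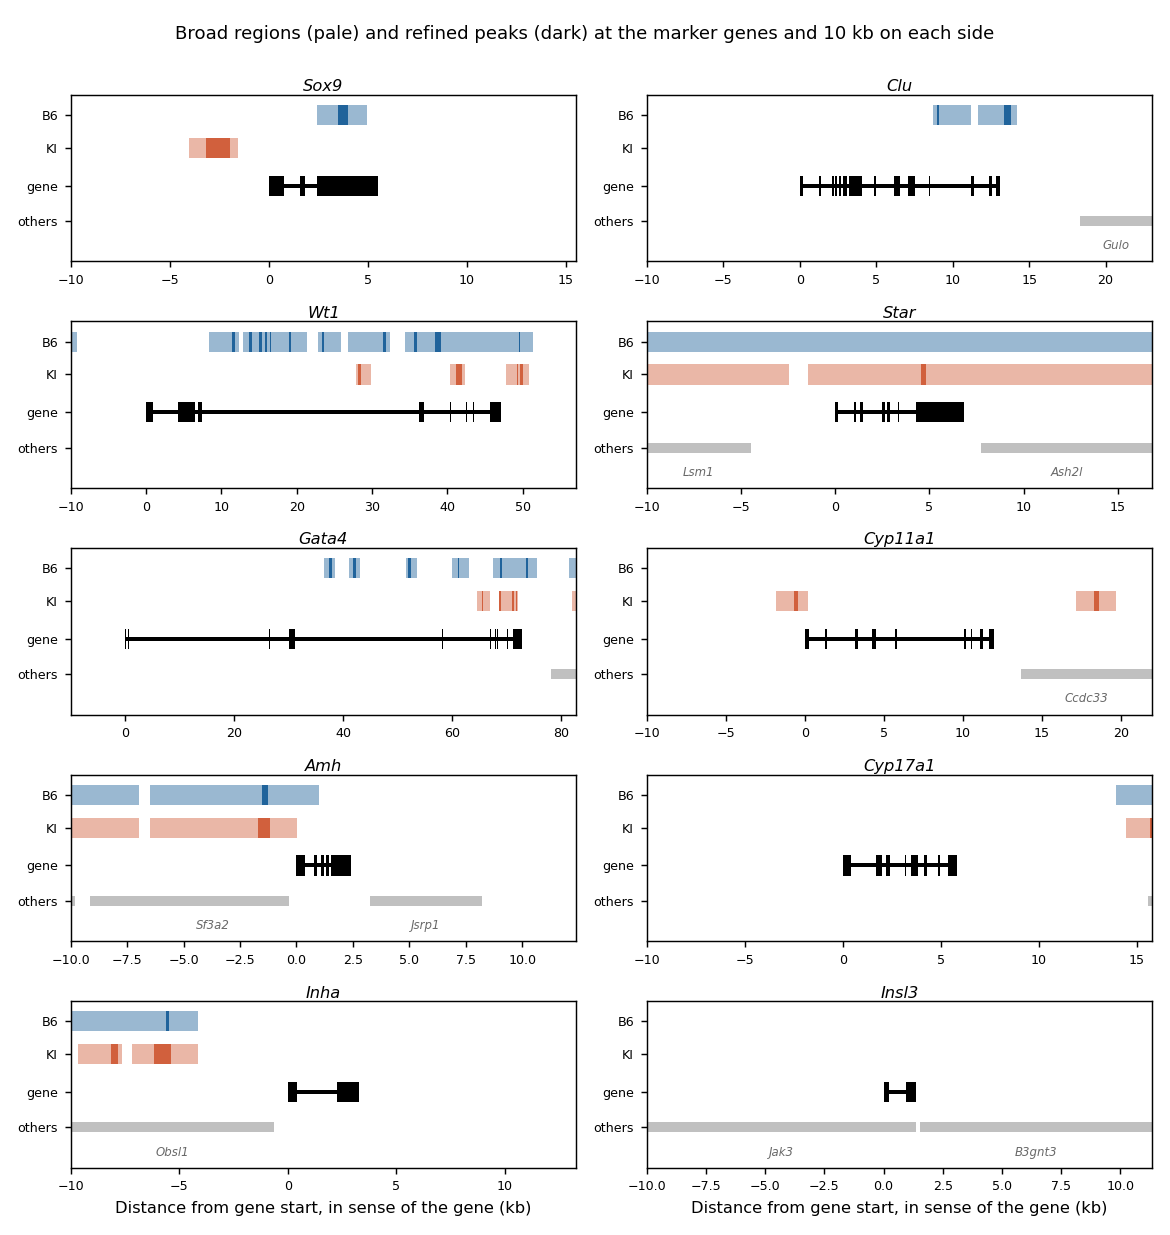
Broad regions (pale) and refined peaks (dark) of B6 (blue) and KI (orange) along each marker gene and 10 kb on each side, with distance from the gene start in kb, exons as black boxes and other protein-coding genes in grey. In B6, regions of Wt1, Gata4, Sox9 and Clu lie away from the start of the gene, while those at Amh and Star also cover neighbouring genes.

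Away from such neighbours, the B6 coverage of Sertoli markers was greater at the 3′ end. In Wt1, Gata4, Sox9 and Clu, the last of the 3 equal parts had a higher covered share than the first, which was at 0 in Gata4, Sox9 and Clu. This is the usual order for partly covered genes. Among the 4638 protein-coding genes with 5% to 75% coverage in B6, the mean covered share was 19.1% in the first part and 55.6% in the last, and 76.4% of the genes had more in the last part. Within the genes, introns were covered further than exons in Wt1 (76.5% against 39.9% in B6) and Clu (35.9% against 12.5%), and exons further than introns in Gata4 (51.3% against 17.8%) and Sox9 (60.5% against 0).

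The Leydig cell markers other than Star were nearly without called regions in both strains. Cyp11a1, the side-chain cleavage enzyme that makes pregnenolone from cholesterol, lies on chromosome 9 (57862820 to 57874827). It was at 0 in B6, where the closest broad region was 51.8 kb away, and at 1.51% in KI. The KI value came from the edge of a region of 2.0 kb around the gene start, of which 181 bp lay in the gene, and the refined peak of that region lay 0.409 kb outside. Cyp17a1, the enzyme that turns progestogens into androgen precursors, lies on chromosome 19 (46741655 to 46747464). It was at 0 in both strains, with the closest broad region, which reaches its neighbour D19Wsu162e, at 8.15 kb in B6 and 8.65 kb in KI. Insl3, a peptide hormone that guides the descent of the testis, lies on chromosome 8 (74213113 to 74214474) and is the shortest marker at 1.36 kb. It was at 0 in both strains, with the closest broad region 21.0 kb away in B6 and 20 kb in KI. The whole of Insl3 lies within the annotated span of Jak3, which was likewise at 0.

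At 0, short markers are not unusual. Among protein-coding genes under 5 kb, 74.8% were at 0 in B6 and 74.4% in KI, and among those of 5 to 10 kb, 44.7% and 43.9%. Cyp11a1 belongs to the class of 10 to 30 kb, in which 30.1% were at 0 in B6.

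Star was the exception among Leydig markers. Its product carries cholesterol into mitochondria, the step that limits steroid synthesis. The gene, 6.84 kb on chromosome 8 (26918946 to 26925782), was covered to 100% in both strains, with 0 refined peaks in B6 and 1 in KI. This cover was continuous with its neighbours. In B6 a single merged region of 54.5 kb reached from Lsm1 across Star into Ash2l, and in KI a region of 33.5 kb began between Lsm1 and Star and reached into Ash2l. Lsm1, an RNA decay factor gene 4.5 kb before Star, was covered to 97.6% in both strains. Ash2l, which encodes a subunit of H3K4 methyltransferase complexes and lies 0.88 kb beyond the end of Star on the other strand, had covered shares of 94.7% (B6) and 93.1% (KI). Whether any of the mark on Star belongs to Star cannot be told from these lists. When regions that reach another gene were left out, Star and Amh were at 0 in both strains, and no marker in KI reached 50%.

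Side by side, B6 was higher than KI by at least 10 percentage points of covered share at 5 of the 10 markers. These were Wt1 (63.2 points), Sox9 (45.2), Amh (41.6), Clu (29.7) and Gata4 (11.3), all of them Sertoli markers. Of all protein-coding genes, 11.4% were higher in B6 by that much. KI was higher by at least 10 points at 0 of the 10 markers, beside 5.67% of all protein-coding genes. At the 4 Leydig markers and Inha the strains lay within 10 points of each other. The limit of 10 points was chosen with values known. With broad regions of at least 5000 bp alone, Sox9 and Clu were at 0 in both strains, Gata4 differed by 7.2 points, and 2 of the 10 markers were higher in B6 by at least 10 points, Wt1 and Amh.

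The share of genes higher in B6 grew with gene length, from 6.27% of those under 5 kb to 15.4% of those of 30 kb and over. The share higher in KI was 6.04% and 2.94% in the same classes. The lists themselves differed too, with fewer refined peaks and more broad sequence in B6. The paper also reports fewer aligned reads for B6 than for KI. The part of either in the differences at the markers was not tested.

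**Figure D3:**
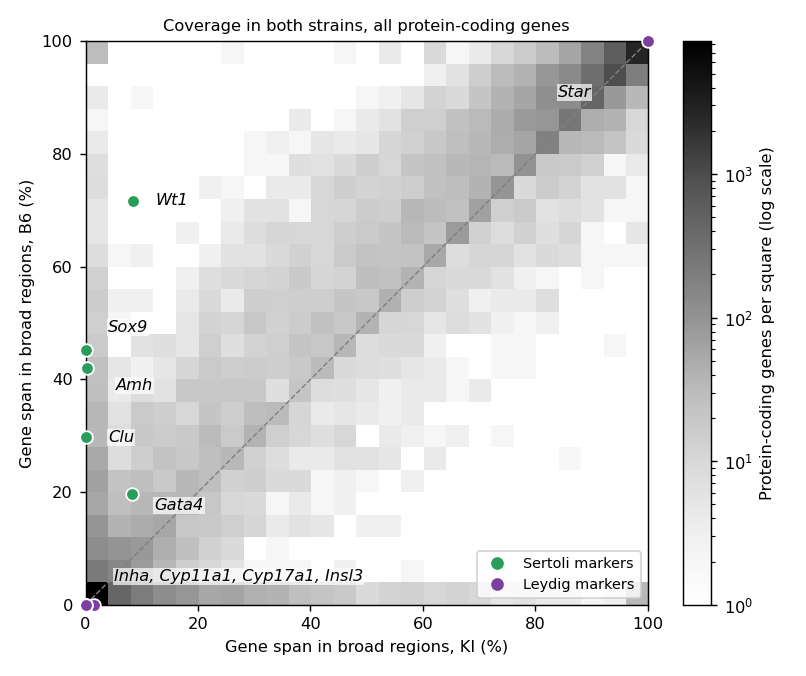
Covered share in KI (x axis, percent) against B6 (y axis, percent) for all protein-coding genes (grey squares, shade on a log scale) with Sertoli markers in green, Leydig markers in purple and a dashed line at equality. Wt1, Sox9, Amh, Clu and Gata4 lie above the line, and Star sits at 100% in both strains.

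Other genes known from Sertoli cells were set beside the markers. Of 26 listed genes 25 were annotated under these names. Of the 25, 6 reached 50% in B6 and 5 in KI, beside 43.0% and 41.2% of all protein-coding genes. By the mean of both strains, the most covered were Dmrt1 (98.6% in B6 and 91.7% in KI), a factor that spermatogonia express as well, Ctsl (91.3% and 84.3%), a lysosomal protease, and Tjp1 (85.8% and 86.5%), a tight junction protein of many tissues. Genes such as Cst9, Dhh and Fst were at 0 in both. B6 was higher by at least 10 points at 7 of the 25 and KI at 0, beside 11.4% and 5.67% of all protein-coding genes. The largest differences in this list, named after the values were seen, were at Aard (76.0% in B6, 0 in KI) and at Inhbb, the beta B subunit of inhibin (43.6% and 0). The median covered share of this list was 7.53% in B6 and 4.32% in KI.

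Genes of steroid synthesis and Leydig cells gave a split picture. Of 19 annotated genes, 6 reached 50% in B6 and 5 in KI, beside 43.0% and 41.2% of all protein-coding genes. By the mean of both strains, the most covered were Hsd17b7 (95.6% in both strains), Fdx1 (91.8% and 94.3%) and Fdxr (84.9% in both), an enzyme of cholesterol synthesis and the electron carriers of mitochondrial cytochromes P450, which other cells also use. Akr1c14, Hsd17b3 and Hsd3b1, steroid dehydrogenases or reductases, were at 0 in both strains. B6 was higher by at least 10 points at 4 of the 19 and KI at 1, beside 11.4% and 5.67% of all protein-coding genes. Among the 4 was Nr5a1, named after its value was seen, at 38% in B6 and 6.05% in KI. Nr5a1 encodes a regulator of steroidogenic genes and is expressed in both Sertoli and Leydig cells.

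Genes of the other somatic cells of the testis were covered little, beside the 43.0% (B6) and 41.2% (KI) of all protein-coding genes that reached 50%. Of 8 peritubular myoid genes, 1 reached 50% in each strain (Tagln, 90.0% in both). B6 was higher by at least 10 points at 0 of them and KI at 1, Tpm2, named after its values were seen (0 in B6 and 22.1% in KI). Of all protein-coding genes, 11.4% were higher by that much in B6 and 5.67% in KI. Of 8 endothelial genes, 0 reached 50% in either strain, and the highest, Kdr, was at 18.6% in B6 and 9.86% in KI. Of 8 macrophage genes, Cd68 was at 100% in both strains and the next, Csf1r, at 18.1% in both. Tagln (6.43 kb) and Cd68 (1.94 kb) had 0 refined peaks in both strains. Whether their regions run in from neighbouring genes was not examined. For comparison, 2 of 30 genes of other organs reached 50% in each strain, and 24 were at 0 in both. Among 16 genes of postmeiotic spermatids, 3 reached 50% in each strain and 10 were at 0 in both. Of all protein-coding genes, 34.0% were at 0 in both. These 2 lists hold many short genes and were not matched for length. Of protein-coding genes under 5 kb, 4181 of 5841 were at 0 in both strains.

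**Figure D4:**
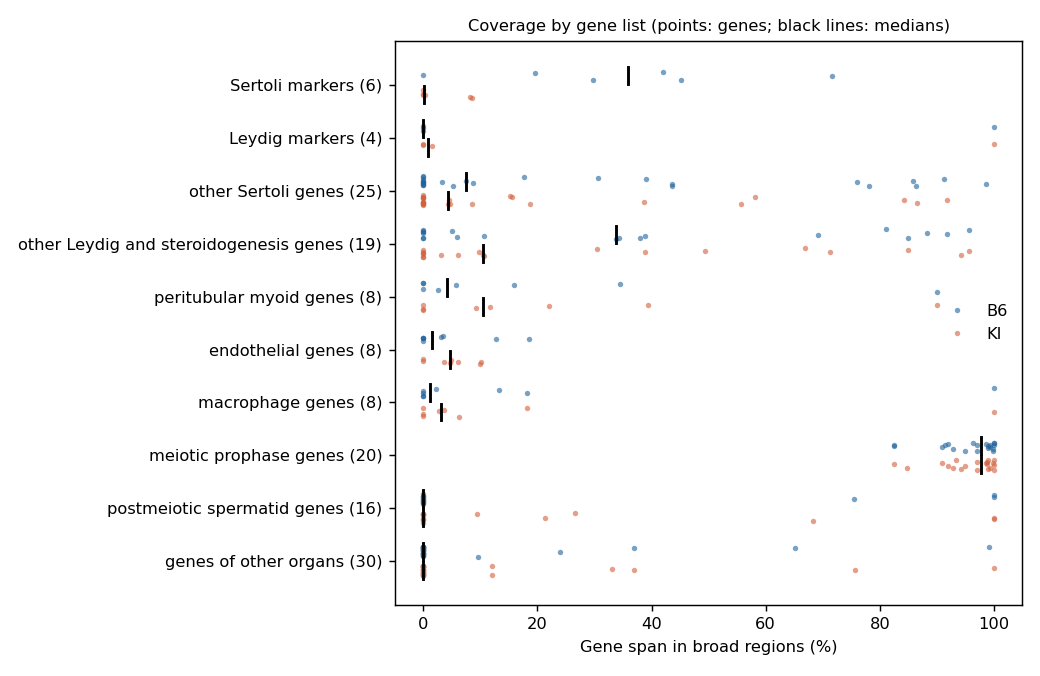
Covered share (x axis, percent) of each gene in B6 (blue) and KI (orange) by list, with the number of genes in parentheses and a black line at each median. The medians of the 6 Sertoli markers were 35.9% in B6 (3.6% with broad regions of at least 5000 bp alone) and 0.167% in KI, and those of the 20 meiotic genes were 97.8% in both.

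The median covered share of the 6 Sertoli markers was 35.9% in B6, beside 33.8% for the other Leydig and steroidogenesis genes, 7.53% for the other Sertoli genes and 21.5% for all protein-coding genes. The peritubular, endothelial and macrophage lists had B6 medians of 4.18%, 1.56% and 1.11%. In KI the median of the Sertoli markers was 0.167%, beside 10.5% for the other Leydig and steroidogenesis genes, 4.32% for the other Sertoli genes and 18.4% for all protein-coding genes. The 3 remaining somatic lists had KI medians of 10.4%, 4.71% and 3.14% in the same order. The 4 Leydig markers had medians of 0 in B6 and 0.754% in KI. Over 6 genes the Sertoli medians rest on few values. The B6 median lies between Amh and Clu, and the KI median is set by the 8 bp of Amh in the region that begins in Sf3a2. With broad regions of at least 5000 bp alone, the medians of the Sertoli markers were 3.6% in B6 and 0 in KI, and without regions that reach another gene they were 24.7% and 0. With 1 list per strain, none of these differences has an error from replicates, and the share of Sertoli cells in either suspension was not measured.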

How the data were processed

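H3K36me3 ChIP-seq reads were trimmed with trimmomatic and aligned to mm9 with BWA (version 1.2.3 in the submitters' processing notes) by the authors, who dropped reads without a unique position, pooled 2 replicates per strain and then ran ZINBA against the input. The deposited files hold 3 columns, the chromosome, start and end of broad (unrefined) regions or narrow (refined) peaks, with no read number or score. The depth behind a single region is thus unknown, although the paper reports more aligned reads for KI than for B6. Starts of broad regions lie on a grid of 500 bp plus 1 and were read as counted from 1. Repeated lines of the broad lists were used once, and overlapping or adjoining broad regions were merged. Genes came from GENCODE vM1, and sequences from the NCBIM37 genome, both of the mm9 build. Where a symbol had more than 1 record, the longest was taken. Python 3.11.15, numpy 2.4.6, pandas 2.3.3 and scipy 1.17.1 were used. The coverage code gave the exact number of bases for 2000 of 2000 simulated spans. The rule for named genes took all 10 members, with overlapping and nearest protein-coding genes, genes in the same regions, and the 3 most and 3 least covered genes of each list (alphabetical among ties). Members and lists were chosen with earlier results of these data known. No tests were made, as each strain has 1 list. The sequence before the start of 1 marker is not reported here.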

Additional observations from a re-analysis of the deposited data

How the results depend on the processing

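No paired analysis was possible because each strain has 1 pooled list and no replicate number. For the same reason no replicate could be left out. Of 113 summary values under alternatives, 91 stayed within 1.5 times the main count or within the Wilson 95% interval over bins of 500 bp, and 22 moved further. Some of the 91 could not move, because counts of refined peaks do not depend on alternatives that only drop broad regions. Neighbouring bins of a region are not independent, so the interval is a yardstick and not a measure of error. For single genes the number of values that stayed is not given. An interval over the few bins of a short gene is too wide to show that a value stayed. The causes follow from how each alternative was built.

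With broad regions of at least 5000 bp, the markers together were covered to 23.4% in B6 and 4.02% in KI. Under this setting 2 markers in KI had any broad region, and 2 were at least 10 points higher in B6. Of the covered bases of KI, 33.3% lay in the last of the 3 equal parts of the genes (60.4% with all regions). The KI markers with a region were Star, covered to 100%, and Amh, at 0.333%, so this share is that of a wholly covered Star. The difference and the share in the last part were added after seeing the data. With regions that reach another gene left out, an alternative chosen after seeing the data, the markers reaching 50% numbered 1 in B6 and 0 in KI, 3 had any region in KI, the covered share in KI was 5.98%, 13.8% of the B6-covered bases were also covered in KI (23.0% otherwise), and 78.6% of the covered bases of KI lay in that last part. With the longest protein-coding transcript as the span, the covered share in B6 was 43.3%. Gata4 was then at 30.7% in B6 and 12.9% in KI, a difference of 17.8 points (11.3 otherwise). With the span extended by 1000 bp on each side, Amh differed by 22.7 points (41.6 otherwise) and Cyp11a1 was at 8.43% in KI (1.51% otherwise). At a limit of 25%, 5 markers passed in B6, and at 75%, 1 passed. Insl3 has no base outside Jak3 and gave no value when bases of other genes were left out. The medians of the markers under alternatives were computed after seeing the data. The Sertoli median in B6 was 3.6% with regions of at least 5000 bp. The Sertoli median in KI was 4.01% with the extended span and 0 with regions of at least 5000 bp or without regions that reach another gene. The Leydig median in KI was 4.22% with the extended span, 1.51% with bases of other genes left out, and 0 under the other 2 settings just named.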

Other observations

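The genes of 30 kb and over with the widest gap in covered share were listed in both directions, after the values were seen. Higher in B6 were Loxl2 (90.2% in B6 and 11.1% in KI), a lysyl oxidase, Wt1 itself, Pkd2 (55.7% and 0), the polycystin 2 channel, and Mme (62.1% and 9.84%), the membrane enzyme neprilysin. They were followed by Gyg (64.8% and 13.6%) and Serpine2 (64.7% and 17.1%). Higher in KI were 1700016M24Rik (26.5% in B6 and 81.2% in KI), Crisp2 (0 and 52.0%), which encodes a protein of the sperm acrosome and tail, and Xrra1 (7.68% and 58.9%). Next in that direction were 9330101J02Rik (0 and 42.9%), Ccdc13 (7.17% and 47.8%) and Ccdc108 (14.9% and 55.2%).

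Among postmeiotic genes, also picked with values known, Prm2, a protamine, was at 0 in B6 and 100% in KI over a span of 0.723 kb, and Acrv1, of the acrosome, was at 100% in B6 and 21.3% in KI.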
